A study of Mus musculus with 14 samples.

Results

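The 7 genes described here stood close to zero in control mouse epidermis and were clearly present in epidermis of mice made to lose an exon of the alpha ending of p63: Stk32a, Camk4, Epha3, Sncg, Mctp1, Myot and Fam184b. They are 7 of the 24411 genes in the epidermis count table, and all 7 are also among the 27179 genes of the keratinocyte count table. They were picked by name for a large difference in the epidermis values, so those values are given below as a description without p-values. The standard errors printed with their epidermis fold changes come from the fits and are not support for a difference. The values in cultured keratinocytes were not the stated ground for the choice and are tested. Earlier results of these data were known when the genes were chosen.

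RNA was sequenced from 2 genotypes of newborn mice. In the p63beta group, KRT14-Cre; Trp63-Ex13fl/fl, the keratin 14 promoter drives Cre recombinase, which removes the floxed exon 13 of Trp63 in cells that express keratin 14. The p63alpha group, Trp63-Ex13fl/fl, carries the same floxed exon without Cre and keeps it. Epidermis, lifted from the dermis after a night in trypsin, gave 4 p63beta libraries (KO2, EP10, EP11 and EP12) and 4 p63alpha libraries (EP07, EP08, WT3 and EP09). Primary keratinocytes grown in low calcium medium gave 3 libraries of each genotype, numbered 1 to 3. Nothing in the labels ties a library to an animal of its own; the p-values below therefore reflect variation among libraries, part of which may be technical.

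The transcription factor p63, a relative of p53, is needed to form and maintain stratified epithelia, and its messenger RNA is spliced to alternative C-terminal endings, of which alpha is the main one in epidermis. None of the 7 genes is a standard epidermal marker. Stk32a and Camk4 encode serine/threonine protein kinases, the second of which needs calcium and calmodulin and is known from neurons and T cells, where it phosphorylates the transcription factor CREB. Epha3 encodes a receptor tyrosine kinase for ephrin-A ligands, which sit on neighbouring cells. Sncg encodes gamma-synuclein, a small protein known from sensory neurons and fat cells, and Mctp1 encodes a membrane-anchored protein with calcium-binding C2 domains. Myot encodes myotilin, an actin-binding protein of the Z-disc of striated muscle, and Fam184b encodes a coiled-coil protein whose function is not well known.

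The sources held promoter sequence for 4 of the 7 genes, from RefSeq on GRCm38.p6, the assembly also called mm10. Of these 4, the sequences of Epha3, Sncg and Fam184b are printed because each covers the start of a gene whose signal differed between the genotypes, each from 250 bases before to 50 bases after the start, 5′ to 3′ on the gene's own strand, with every CG pair in capitals. They lie at chr16:63864126-63864425 (minus strand, Epha3), chr14:34374620-34374919 (minus strand, Sncg) and chr5:45639452-45639751 (minus strand, Fam184b).
Epha3: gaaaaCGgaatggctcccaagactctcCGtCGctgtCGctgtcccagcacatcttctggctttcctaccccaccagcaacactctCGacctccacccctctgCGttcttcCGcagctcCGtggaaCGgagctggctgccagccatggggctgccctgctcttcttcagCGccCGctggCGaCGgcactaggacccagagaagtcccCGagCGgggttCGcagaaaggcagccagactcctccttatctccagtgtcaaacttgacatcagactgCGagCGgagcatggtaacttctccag
Sncg: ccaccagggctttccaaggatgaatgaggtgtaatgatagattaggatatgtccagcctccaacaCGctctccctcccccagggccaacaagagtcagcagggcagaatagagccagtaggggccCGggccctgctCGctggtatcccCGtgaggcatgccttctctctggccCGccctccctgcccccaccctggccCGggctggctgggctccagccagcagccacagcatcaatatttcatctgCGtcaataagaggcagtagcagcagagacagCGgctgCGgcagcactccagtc
Fam184b: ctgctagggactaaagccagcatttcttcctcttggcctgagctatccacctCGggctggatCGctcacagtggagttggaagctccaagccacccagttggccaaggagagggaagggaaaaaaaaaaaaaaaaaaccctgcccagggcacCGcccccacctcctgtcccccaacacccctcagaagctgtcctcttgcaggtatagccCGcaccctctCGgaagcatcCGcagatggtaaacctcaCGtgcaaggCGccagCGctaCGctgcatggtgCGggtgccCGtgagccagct
The Epha3 window held 18 CG pairs, that of Fam184b 12 and that of Sncg 9, against a median of 7 and a 10th to 90th percentile range of 1 to 31 over all 32851 promoter windows. In all, 3 motifs were searched on both strands. The p53 family pattern, CATG and CATG with any 6 bases between them, found in 0.712% of all windows, was in none of these 3. The AP-1 pattern TGANTCA, found in 7.81%, and TATAAA, found in 13.6%, were not in them either. The window listed for Mctp1, at chr13:76579347-76579646, lies inside the gene span of the count table rather than at its start; it holds TGANTCA 66 bases before the listed start. No match says only that these letters are absent from the window.

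Library totals were 23280242 to 44909629 estimated counts in p63beta epidermis and 21290068 to 34144606 in p63alpha epidermis, and 25455374 to 29229809 and 20688027 to 30066041 counted read pairs in p63beta and p63alpha keratinocytes. For the targeted gene, the Trp63 transcript matched alone to an annotated transcript with exon 13 (chromosome 16, 25886206 to 25886299) measured 6.16 to 19.6 TPM (length-scaled transcript abundance) in p63beta and 30.7 to 116 TPM in p63alpha epidermis. Another, whose annotated match with exon 13 is shared by a second accession, measured 134 to 250 TPM in p63beta and 8.01 to 23.6 TPM in p63alpha, so its ending cannot be told from that match. A further transcript with such a shared match measured 0 TPM in every p63beta library and 37.5 to 107 TPM in p63alpha. A transcript matched without exon 13 measured 14.4 to 48.1 TPM in p63beta and 0 to 1.49 TPM in p63alpha. Another without it went the other way, with 0 TPM in p63beta and 8.19 to 14.1 TPM in p63alpha. The keratinocyte table has no transcript values. The summed level of 9 keratinocyte markers spanned 115949 to 159016 CPM (counts scaled to a common library depth) in p63beta and 95653 to 169114 CPM in p63alpha epidermis, so the material carried keratinocyte RNA throughout. The 8 melanocyte markers summed to 344 to 498 CPM in p63beta and 134 to 285 CPM in p63alpha epidermis, without overlap; edgeR called none of the 8 (6 with an unadjusted p under 0.05) and DESeq2 called 3, and their part in the values below was not tested. Over the lists of 112 markers of muscle, neurons and other cell types, edgeR called 0 of 67 tested in epidermis and 0 of 73 in keratinocytes, with 9 and 11 at an unadjusted p under 0.05, and DESeq2 called 4 and 3. Of all genes tested, edgeR called 0.232% in epidermis and 0.101% in keratinocytes, and DESeq2 0.987% and 1.53%. The share of all genes at an unadjusted p under 0.05 is not given here. In such bulk samples, fewer cells of a type and less RNA per cell cannot be told apart.

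The kinase gene Stk32a (chromosome 18, 43207697 to 43317481, plus strand, mm10) measured 7.58, 11.8, 15.2 and 11.5 CPM in p63beta libraries KO2, EP10, EP11 and EP12, against 0.0294, 0.0322, 0.0334 and 0 CPM in p63alpha libraries EP07, EP08, WT3 and EP09. The p63alpha values rest on 1, 1, 1 and 0 reads, and the p63beta values on 304, 290, 479 and 265. Scaled for depth, the summed counts of 1338 and 3 differed 444-fold, a ratio that rests on 3 p63alpha reads. All p63beta libraries were high and the p63alpha libraries were at the edge of detection. The fitted log2 fold change was 8.62 ± 0.49 (SE, derived from the edgeR test statistic). DESeq2 gave 8.84 ± 0.89 (its own SE).

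The second kinase gene, Camk4 (chromosome 18, 32939041 to 33195767, plus strand), measured 3.27, 7.17, 6.29 and 3.55 CPM in the p63beta libraries, against 0.676, 0.161, 0.167 and 0.717 CPM in the p63alpha libraries. The p63alpha libraries held 5 to 23 reads each, so Camk4 was low there but not absent. The means were 5.07 ± 1.95 CPM in p63beta and 0.430 ± 0.308 CPM in p63alpha (SD, n = 4 each), and the log2 fold change was 3.55 ± 0.58 (SE). T cells also express Camk4. The 8 T cell markers summed to 20.9 to 42.0 CPM in p63beta and 24.6 to 61.5 CPM in p63alpha epidermis. Of the 7 tested markers, 0 were above zero on the log2 fold change. The part of T cells in the Camk4 value was not tested.

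The receptor gene Epha3 (chromosome 16, 63545218 to 63864157, minus strand) measured 8.45, 10.5, 8.30 and 0.909 CPM in the p63beta libraries, against 0.0588, 0.129, 0.0668 and 0.0844 CPM in the p63alpha libraries. The p63beta library EP12, with 21 reads, was far below the other p63beta libraries, which held 259 to 339, yet still above every p63alpha library, which held 2 to 4. The means were 7.05 ± 4.22 CPM in p63beta and 0.0847 ± 0.0312 CPM in p63alpha (SD, n = 4 each), and the log2 fold change was 6.32 ± 0.78 (SE).

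Sncg (chromosome 14, 34370274 to 34374669, minus strand) measured 18.3, 44.3, 31.7 and 11.5 CPM in the p63beta libraries, against 0.823, 0.933, 0.1002 and 0.295 CPM in the p63alpha libraries. In p63alpha it was detected with 3 to 29 reads, and in p63beta with 265 to 1087. The means were 26.4 ± 14.5 CPM in p63beta and 0.538 ± 0.403 CPM in p63alpha (SD, n = 4 each), which is 5.58 ± 0.66 (SE) on the log2 scale. Sensory neurons and fat cells express Sncg. The 11 neuron markers summed to 2.42 to 55.6 CPM in p63beta and 3.88 to 18.4 CPM in p63alpha epidermis. The tubulin gene Tubb3 was the largest part of that sum in KO2, EP10 and EP11, with 53.5, 38.1, 27.1 and 1.21 CPM in KO2, EP10, EP11 and EP12 and 2.14 to 16.9 CPM in p63alpha. The other 10 neuron markers summed to 1.21 to 6.96 CPM in p63beta and 1.45 to 4.26 CPM in p63alpha. Of the 11 neuron markers, 4 were tested and 0 called by edgeR or DESeq2, with 1 above zero on the log2 fold change (median -0.17). The 8 adipocyte markers summed to 9.91 to 22.7 CPM in p63beta and 2.41 to 14.3 CPM in p63alpha, with Lep at 0 in every library and Adipoq at 0 in every p63beta library. All 3 adipocyte markers that passed the filter were above zero on the log2 scale (median 0.88), and 0 were called by edgeR or DESeq2 or had an unadjusted edgeR p under 0.05. Tubb3 was lowest in EP12, as were Sncg and Epha3; the part of these cell types in the result was not tested.

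Mctp1 (chromosome 13, 76384961 to 77031810, plus strand) measured 3.34, 4.76, 5.28 and 2.73 CPM in the p63beta libraries, against 0.206, 0.482, 0.234 and 0.127 CPM in the p63alpha libraries. Its p63beta libraries lay closer together than those of Epha3 or Sncg, and the genotypes did not overlap. The means were 4.03 ± 1.19 CPM in p63beta and 0.262 ± 0.154 CPM in p63alpha (SD, n = 4 each), and the log2 fold change was 3.91 ± 0.47 (SE).

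Myot (chromosome 18, 44334074 to 44355722, plus strand) measured 3.14, 4.19, 2.19 and 11.8 CPM in the p63beta libraries, and no read was assigned to it in any p63alpha library. Here EP12 was the highest p63beta library, with 272 of the 570 reads. Against a floor of 3 counts in each p63alpha library, which averaged 0.103 CPM, the p63beta mean of 5.32 ± 4.37 CPM (SD, n = 4) was at least 51.8-fold higher, and without EP12 at least 30.9-fold higher. Myotilin is a muscle protein, and the 27 muscle markers summed to 33.9 CPM in EP12, 15.3 to 28.7 CPM in the other p63beta libraries and 16.9 to 25.3 CPM in the p63alpha libraries. Of the 27, edgeR called 0 of 7 tested, with 3 above zero on the log2 fold change. DESeq2 called 1, against 0.987% of all genes it tested. The creatine kinase gene Ckm stood at 0.424, 0.366, 0.223 and 0.476 CPM in KO2, EP10, EP11 and EP12. In p63alpha Ckm stood at 0.0643 to 0.169 CPM, without overlap. That range is near the floor of 3 counts, which is 0.0882 to 0.127 CPM in the p63alpha libraries. A lack of overlap with p63beta higher was seen for 1.88% of all genes tested in epidermis. The actin gene Acta1 stood at 0.748, 6.94, 3.68 and 0.606 CPM in KO2, EP10, EP11 and EP12 and at 0.0322 to 0.633 CPM in p63alpha. EP12 thus held the highest Myot and Ckm levels, the highest sum of muscle markers and the lowest Acta1 level of the p63beta libraries. The part of muscle RNA in the epidermis Myot value was not tested.

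Fam184b (chromosome 5, 45529705 to 45639501, minus strand) measured 9.40, 15.0, 12.8 and 6.66 CPM in the p63beta libraries, against 1.44, 1.13, 0.869 and 0.717 CPM in the p63alpha libraries. It was detected with 17 to 49 reads in every p63alpha library, so it was low there rather than absent. The means were 10.97 ± 3.69 CPM in p63beta and 1.04 ± 0.317 CPM in p63alpha (SD, n = 4 each), and the log2 fold change was 3.39 ± 0.36 (SE).

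**Figure D1:**
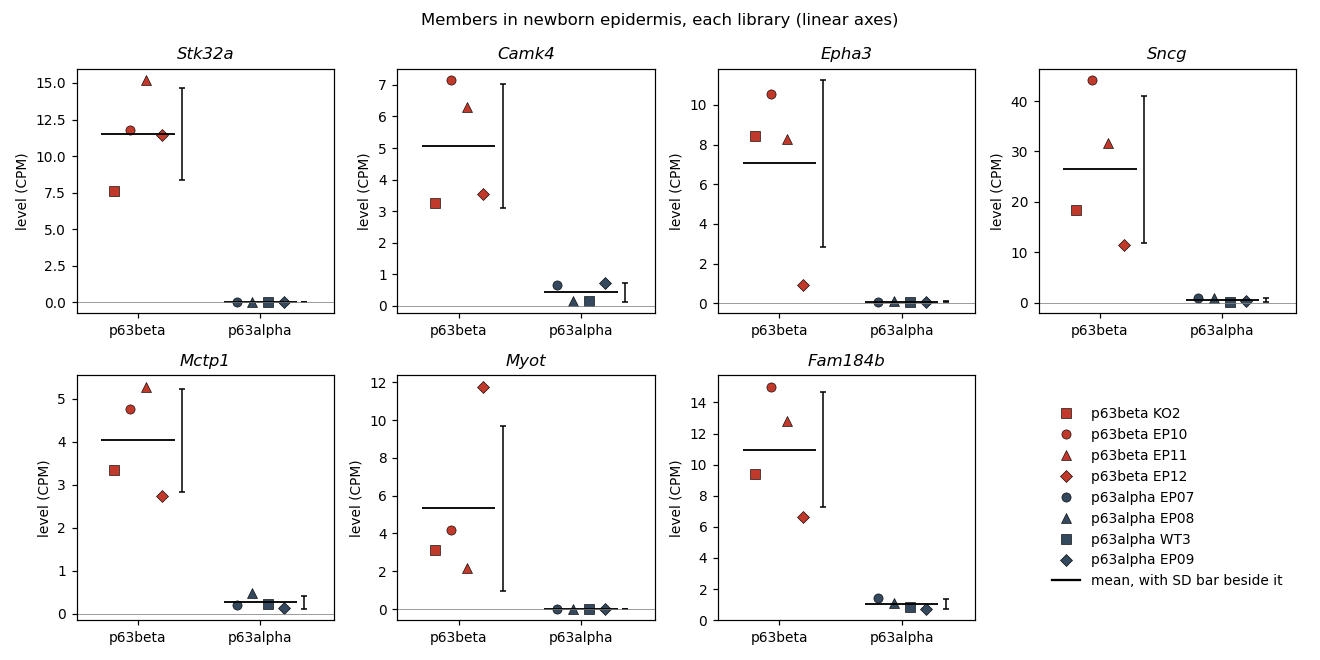
Level of each of the 7 genes in newborn epidermis in CPM on linear axes, with 1 point per library, p63beta left and p63alpha right; horizontal lines are means and the bars beside them are SD (n = 4 each). Every p63beta library lies above every p63alpha library for each gene, and EP12 is the lowest p63beta point for Epha3 (0.909 CPM) and the highest for Myot (11.8 CPM).

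Of the 13796 genes tested in epidermis, 30 (0.217%) were called higher in p63beta by edgeR's quasi-likelihood test with Benjamini-Hochberg adjustment, and the 7 genes are among them, which the choice of genes used. All 7 passed the filter on low counts. A lack of overlap with p63beta higher was seen for 1.88% of tested genes. Among the 30, 14 had a p63alpha mean under 2 CPM, a limit set after values were seen. The others below that limit were Cpz, Fut9, D630023F18Rik, Hydin, Dpp6, Gpr27 and Gnao1. Just above it stood Nid2, with 156 CPM in p63beta and 2.07 CPM in p63alpha, Art3, with 10.3 CPM in p63beta and 2.68 CPM in p63alpha, and Ptgs2, with 51.9 CPM in p63beta and 2.91 CPM in p63alpha.

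Per unit of length, Sncg was by far the most abundant of the genes in p63beta epidermis, at 73.4 ± 45.1 TPM (SD, n = 4), against 1.61 TPM in p63alpha. Stk32a followed with 4.96 ± 1.68 TPM, Fam184b with 4.27 ± 1.67, Myot with 4.05 ± 3.47 and Epha3 with 2.80 ± 1.75. Mctp1 at 1.503 ± 0.532 TPM and Camk4 at 0.647 ± 0.289 TPM were lowest. Between neighbours in this order, the libraries did not overlap for Sncg and Stk32a or for Mctp1 and Camk4, and overlapped for the other pairs. The table lists 1 transcript for each of the 7 genes, so the signal could not be divided among isoforms.

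The p63beta libraries did not carry the 7 genes in one common proportion. EP10 was highest for Camk4, Epha3, Sncg and Fam184b, EP11 for Stk32a and Mctp1, and EP12 for Myot. EP12 was lowest for Epha3, Sncg, Mctp1 and Fam184b, KO2 for Stk32a and Camk4, and EP11 for Myot. The highest library exceeded the lowest 11.6-fold for Epha3, 5.37-fold for Myot and 3.86-fold for Sncg, and 1.94-fold to 2.25-fold for the other 4 genes. For 8511 tested genes with a p63beta mean of 1 to 50 CPM, the median of this ratio was 1.81.

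The coefficient of variation over the p63beta libraries was 82.1% for Myot, 59.9% for Epha3 and 55.0% for Sncg. For Camk4, Fam184b, Mctp1 and Stk32a it lay between 27.2% and 38.6%, within the interquartile range of 17.3% to 38.9% of the same 8511 genes. Relative to the median of the other 3 p63beta libraries, EP12 held 0.108 of the Epha3 level, 0.362 of Sncg, 0.520 of Fam184b, 0.564 of Camk4 and 0.572 of Mctp1. It held 0.971 of the Stk32a level and 3.75 times the Myot level. The interquartile range of this quantity over the 8511 genes was 0.727 to 1.35, so EP12 was below it for 5 of the 7 genes and above it for 1.

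**Figure D2:**
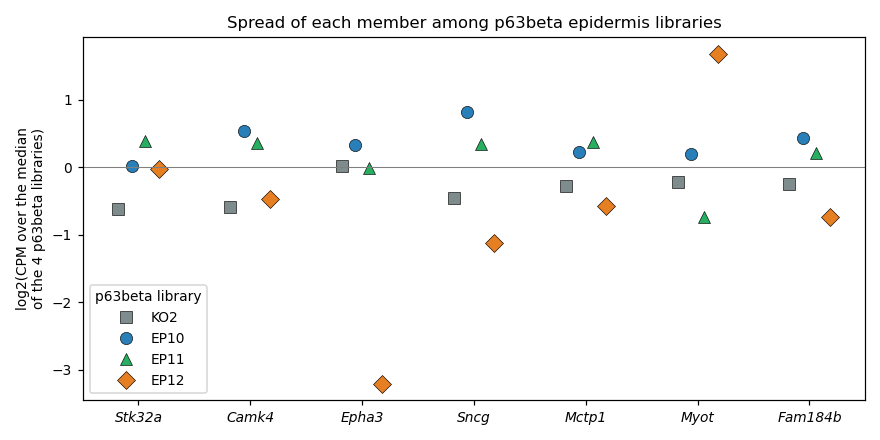
Level of each gene in the 4 p63beta epidermis libraries, as log2 of CPM over the median of those libraries, with 1 symbol per library. EP12 lies far below the rest for Epha3 and above them for Myot, while Stk32a, Camk4, Mctp1 and Fam184b stay within a highest to lowest ratio of 1.94 to 2.25.

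The cultured keratinocytes ask whether the same genes differ between the genotypes in growing cells. Their values were not the stated ground for the choice. Sncg had 218, 268 and 279 CPM in p63beta libraries 1, 2 and 3, against 6.11, 19.7 and 22.6 CPM in p63alpha libraries 1, 2 and 3. Gamma-synuclein RNA was thus well above zero in p63alpha keratinocytes too, and every p63beta library was far higher. The means were 255 ± 32.4 CPM in p63beta and 16.1 ± 8.81 CPM in p63alpha (SD, n = 3 each), a 15.8-fold difference with a log2 fold change of 3.98 ± 0.49 (SE). It did not pass edgeR's quasi-likelihood test (Benjamini-Hochberg adjusted p = 0.0977). With the replicate number as a block it did pass, with a log2 fold change of 4.13 and an edgeR adjusted p of 0.0474. Without p63alpha library 1, the lowest one, it also passed, with a log2 fold change of 3.57 and an adjusted p of 0.0164.

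Fam184b had 1.52, 1.43 and 1.61 CPM in the p63beta libraries, against 0.125, 0.0332 and 0.0952 CPM in the p63alpha libraries. The p63beta libraries agreed closely with each other and stood well clear of p63alpha. The means were 1.52 ± 0.0925 CPM in p63beta and 0.0844 ± 0.0467 CPM in p63alpha (SD, n = 3 each), and the fitted difference was 4.14 ± 0.48 on the log2 scale (SE, edgeR adjusted p = 0.0827, or 0.0694 with the block).

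Camk4 had 8.45, 5.15 and 6.66 CPM in the p63beta libraries, against 2.33, 1.13 and 0.856 CPM in the p63alpha libraries. The groups did not overlap, with means of 6.75 ± 1.65 CPM in p63beta and 1.44 ± 0.783 CPM in p63alpha (SD, n = 3 each). The log2 fold change of 2.23 ± 0.44 (SE) did not pass (edgeR adjusted p = 0.292, or 0.0705 with the block).

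Mctp1 had 6.82, 2.02 and 1.96 CPM in the p63beta libraries, against 0.166, 0.0332 and 0.285 CPM in the p63alpha libraries. Library 1 was well above the other p63beta libraries, which were nevertheless above all p63alpha libraries. The means were 3.60 ± 2.79 CPM in p63beta and 0.162 ± 0.126 CPM in p63alpha (SD, n = 3 each), with a log2 fold change of 4.50 ± 0.88 (SE, edgeR adjusted p = 0.292, or 0.111 with the block).

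Stk32a, which had the highest fitted fold change of the 6 genes with reads in p63alpha epidermis, was low in culture. It had 0.707, 0.555 and 0.596 CPM in the p63beta libraries, against 0, 0 and 0.333 CPM in the p63alpha libraries, without overlap. The fit gave 2.56 ± 1.19 on the log2 scale (SE, edgeR adjusted p = 0.760). Epha3 had 1.41, 0.317 and 0.420 CPM in the p63beta libraries, against 0.540, 0.0664 and 0.476 CPM in the p63alpha libraries. It was the 1 gene of the 7 whose groups overlapped, with a log2 fold change of 1.01 ± 0.88 (SE, edgeR adjusted p = 0.922).

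Myot was left out of the keratinocyte test by the filter on low counts. It had 3, 2 and 59 reads in the p63beta libraries, which is 0.106, 0.0793 and 2.07 CPM, against 0, 1 and 0 reads in the p63alpha libraries. Summed counts of 64 and 1, scaled for depth, gave a ratio of 58.6 with an exact 95% interval of 10.2 to 2352, with 59 of the 64 reads in p63beta library 3. In that library the 27 muscle markers summed to 4761 CPM, against 108 to 313 CPM in the other 5 libraries, with Ckm at 163 CPM against 1.46 to 5.81 CPM. The part of muscle RNA in the Myot value was not tested. In libraries 1 and 2, Myot was at 3 and 2 reads in p63beta and 0 and 1 in p63alpha, and no difference was detectable at this depth.

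**Figure D3:**
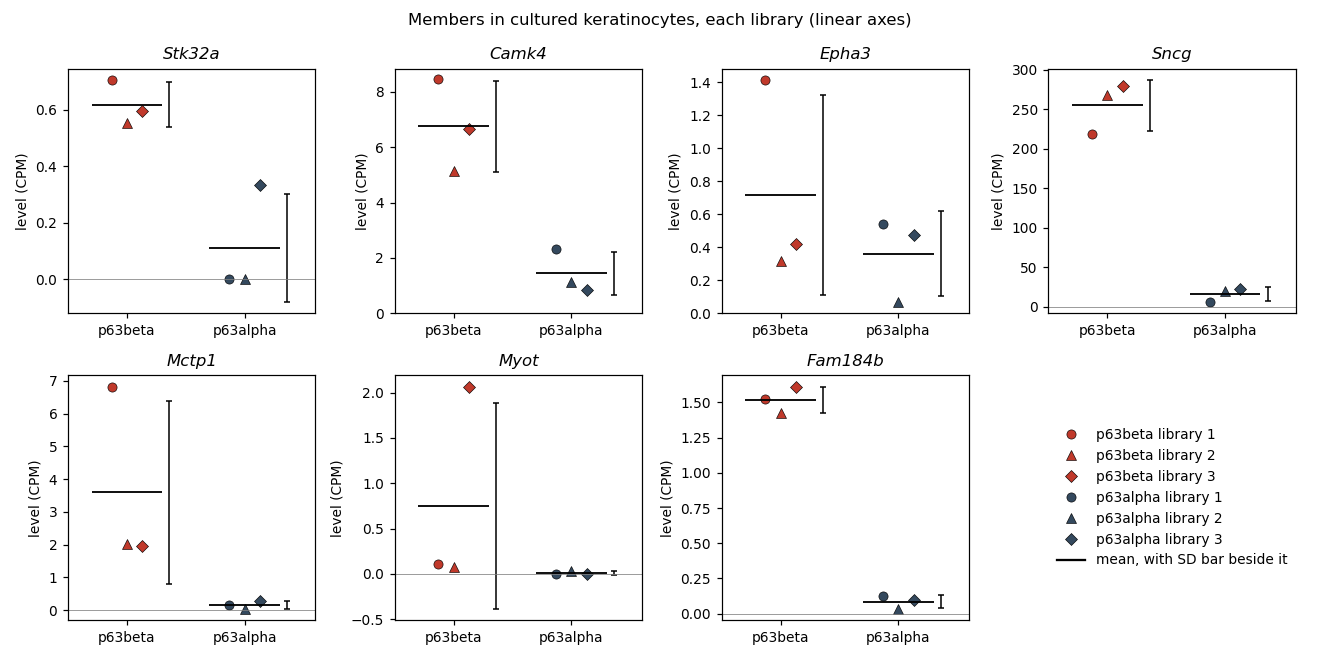
Level of each of the 7 genes in cultured keratinocytes in CPM on linear axes, with 1 point per library, p63beta left and p63alpha right; horizontal lines are means and the bars beside them are SD (n = 3 each), which reach below 0 where 1 library stands apart. The groups overlap for Epha3, and Myot rests on p63beta library 3 (2.07 CPM).

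Of the 7 genes, 6 had every p63beta keratinocyte library above every p63alpha library, against 5.76% of all genes with any count. Myot counts among these only by 2 reads in p63beta library 2 against 1 read in p63alpha library 2. By edgeR without a block, 0 of the 6 tested genes were called, where 13 of 13820 genes (0.0941%) were called higher. With the block, 1 was called, Sncg, where 32 genes (0.232%) were called higher, or 37 (0.268%) in either direction. DESeq2 called 4, where 137 of 14042 genes (0.976%) were called higher: Sncg (adjusted p = 2.47e-18), Fam184b (2.91e-05), Mctp1 (8.41e-05) and Camk4 (3.32e-04). In the authors' deposited table, whose log2 fold changes are shrunken and so not on the scale of those above, Sncg, Fam184b and Camk4 had adjusted p-values of 1.83e-15, 3.04e-05 and 5.24e-04, with shrunken log2 fold changes of 1.83, 1.04 and 0.97. Mctp1 and Myot have shrunken log2 fold changes of 0.68 and 0.16 in the authors' deposited table and no adjusted p there. Stk32a and Epha3 have 0.14 and 0.13 there, with DESeq2 adjusted p-values of 0.993 and 0.9998. Whether any gene differs by genotype more in epidermis than in culture was not tested, since the 2 tables were counted in different ways.

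The order of levels per length also differed in culture. Sncg had 347 ± 36.2 FPKM (fragments scaled to gene length and depth) in p63beta keratinocytes, against 22.2 ± 12.3 FPKM in p63alpha (SD, n = 3 each). The other 6 genes averaged 0.164 to 0.848 FPKM in p63beta, with Mctp1 at the top and Stk32a at the bottom. Sncg and Mctp1 did not overlap in p63beta, nor did Camk4 and Fam184b, while the other neighbours in the order overlapped.

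The families of the 7 genes were examined to see whether close relatives moved with them. Of 92 relatives and pathway genes, 64 were tested in epidermis and 0 were called by edgeR or DESeq2, which called 0.232% and 0.987% of all genes tested, 4 relatives having an unadjusted edgeR p under 0.05. Their median log2 fold change was -0.01, against -0.00 for all genes tested, and 31 were positive. In keratinocytes 67 were tested and 0 called by edgeR or DESeq2, which called 0.101% and 1.53% of all genes, 12 relatives with an unadjusted edgeR p under 0.05, with a median of 0.04 against -0.00 for all genes.

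Of the other Eph receptors, none was called in epidermis. Epha4 measured 67.5 ± 30.6 CPM in p63beta and 67.6 ± 13.7 CPM in p63alpha epidermis (SD, n = 4 each), and Epha2 94.1 ± 24.9 CPM in p63beta and 79.7 ± 11.8 CPM in p63alpha. The largest differences of the 9 tested receptors were -0.96 ± 0.53 for Ephb1 and -0.70 ± 0.66 for Epha7 on the log2 scale (SE, edgeR adjusted p = 0.9999 for each). In keratinocytes they were 1.32 ± 0.45 for Epha7 and -0.45 ± 0.34 for Ephb2 (SE, edgeR adjusted p = 0.628 and 0.899). The 8 ephrins, ligands of these receptors, summed to 383 to 496 CPM in p63beta and 406 to 470 CPM in p63alpha epidermis. The largest ephrin differences were -0.25 ± 0.22 for Efna1 in epidermis and 0.88 ± 0.58 for Efnb3 in keratinocytes (SE, edgeR adjusted p = 0.9999 and 0.872).

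Sncb, which encodes beta-synuclein, was at 0 in every epidermis library. The kinases Stk32b and Stk32c averaged 0.0301 and 0.124 CPM in p63beta and 0.0432 and 0.0897 CPM in p63alpha epidermis, below the filter. Fam184a was below it too, at 0.195 ± 0.157 CPM in p63beta and 0.0999 ± 0.0785 CPM in p63alpha (SD, n = 4 each). Mctp2, the other gene of the MCTP pair, measured 15.3 ± 6.34 CPM in p63beta and 15.6 ± 2.30 CPM in p63alpha epidermis (SD, n = 4 each). The C2 domain genes with the largest differences were Syt16, at 2.12 ± 0.67, and Syt14, at -1.06 ± 0.45 (log2 fold change with SE, edgeR adjusted p = 0.653 and 0.9999).

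Upstream and downstream of Camk4, the activating kinases Camkk1 and Camkk2 had epidermis log2 fold changes of -0.27 ± 0.42 and -0.30 ± 0.38, and Creb1, which encodes CREB, -0.21 ± 0.17 (SE, edgeR adjusted p = 0.9999 for each). The largest differences in that list were 0.85 ± 0.64 for Camk2n2 and 0.82 ± 0.48 for Camk2n1, both encoding inhibitors of CaM kinase II (SE, edgeR adjusted p = 0.9999 for each). In keratinocytes they were -0.89 ± 0.59 for Camk2n1 and -0.61 ± 0.26 for Camk1 (SE, edgeR adjusted p = 0.874 and 0.728).

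Of the Z-disc genes known from muscle, none was called in p63beta epidermis: 7 of 19 were tested, 3 were positive, and the median log2 fold change was -0.10. In keratinocytes 13 of 14 tested were positive with a median of 3.75, and without p63beta library 3, where muscle markers were highest, 7 of 14 were positive with a median of -0.00. Neither comparison called any of these genes by edgeR or DESeq2; 1 had an unadjusted edgeR p under 0.05 in epidermis and 6 in keratinocytes.

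**Figure D4:**
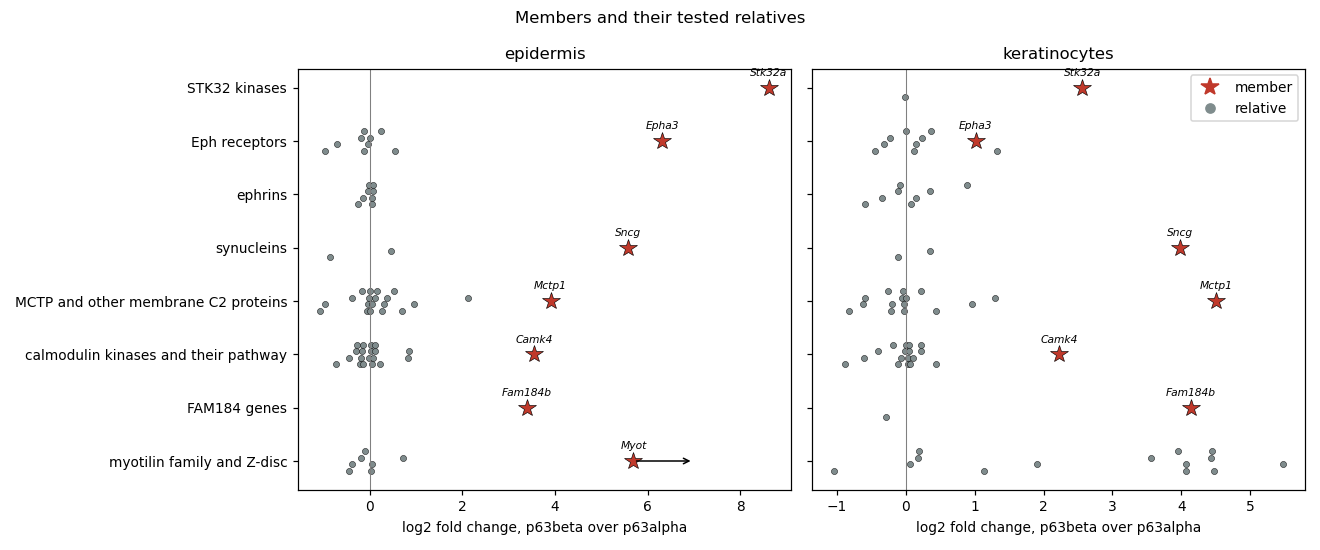
Log2 fold change, p63beta over p63alpha, of the 7 genes (stars) and of each tested relative (grey points) in epidermis (left) and keratinocytes (right), by family. The Myot star in epidermis marks the lower bound of 5.69, and in keratinocytes the Z-disc list has a median of 3.75, or -0.00 without p63beta library 3.

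On the chromosomes, 3 of the 7 genes, Camk4, Stk32a and Myot, lie on chromosome 18 within 11.4 Mb, with 1.02 Mb between the end of Stk32a and the start of Myot. Chromosome 18 holds 2.75% of the tested genes with a placed chromosome, and its 3 genes called higher in epidermis are these 3. The other 4 genes lie on 4 different chromosomes.

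The 3 nearest protein-coding genes on each side of each gene were also compared, 42 in all. In epidermis 28 were tested and 0 called by edgeR, 4 having an unadjusted p under 0.05, and DESeq2 called 2, Ppp2r2b and Nrep. Of all genes it tested there, DESeq2 called 0.987%. Ppp2r2b, a regulatory subunit gene of protein phosphatase 2A that ends 148 kb before Stk32a, had 1.57, 4.80, 3.88 and 3.81 CPM in p63beta libraries KO2, EP10, EP11 and EP12, against 0.676, 0.772, 0.735 and 0.928 CPM in p63alpha libraries EP07, EP08, WT3 and EP09. The groups did not overlap, and the fitted difference was 2.17 ± 0.40 on the log2 scale (SE, edgeR adjusted p = 0.0787). Nrep, beyond Camk4, was lower, with 33.9 ± 7.50 CPM in p63beta and 64.5 ± 2.83 CPM in p63alpha (SD, n = 4 each) and a log2 fold change of -0.93 ± 0.18 (SE, edgeR adjusted p = 0.0962). Stard4, 3.37 kb beyond Camk4, and Dpysl3, 3.50 kb beyond Stk32a, had log2 fold changes of -0.25 ± 0.25 and 0.67 ± 0.49 (SE, edgeR adjusted p = 0.9999 for each).

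In keratinocytes 32 neighbours were tested and 0 called by edgeR, 3 having an unadjusted p under 0.05, and DESeq2 called 2, Mmrn2 and Pros1. Of all genes it tested there, DESeq2 called 1.53%. Mmrn2, an endothelial matrix gene that starts 0.835 kb from the start of Sncg and runs the other way, had 2.76, 3.57 and 5.75 CPM in the p63beta libraries, against 0.125, 0.0664 and 0 CPM in the p63alpha libraries. The fitted difference was 5.84 ± 0.76 on the log2 scale (SE, edgeR adjusted p = 0.108). In epidermis Mmrn2 had 4, 8, 5 and 0 reads in p63beta libraries KO2, EP10, EP11 and EP12 and 0 in each p63alpha library. Endothelial markers in keratinocytes summed to 17.9 to 47.6 CPM in p63beta and 10.5 to 15.3 CPM in p63alpha over 7 genes, and their part in the Mmrn2 value was not tested. On the other side of Sncg, Fam25c had a log2 fold change of 1.64 ± 0.77 (SE, edgeR adjusted p = 0.760).

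**Figure D5:**
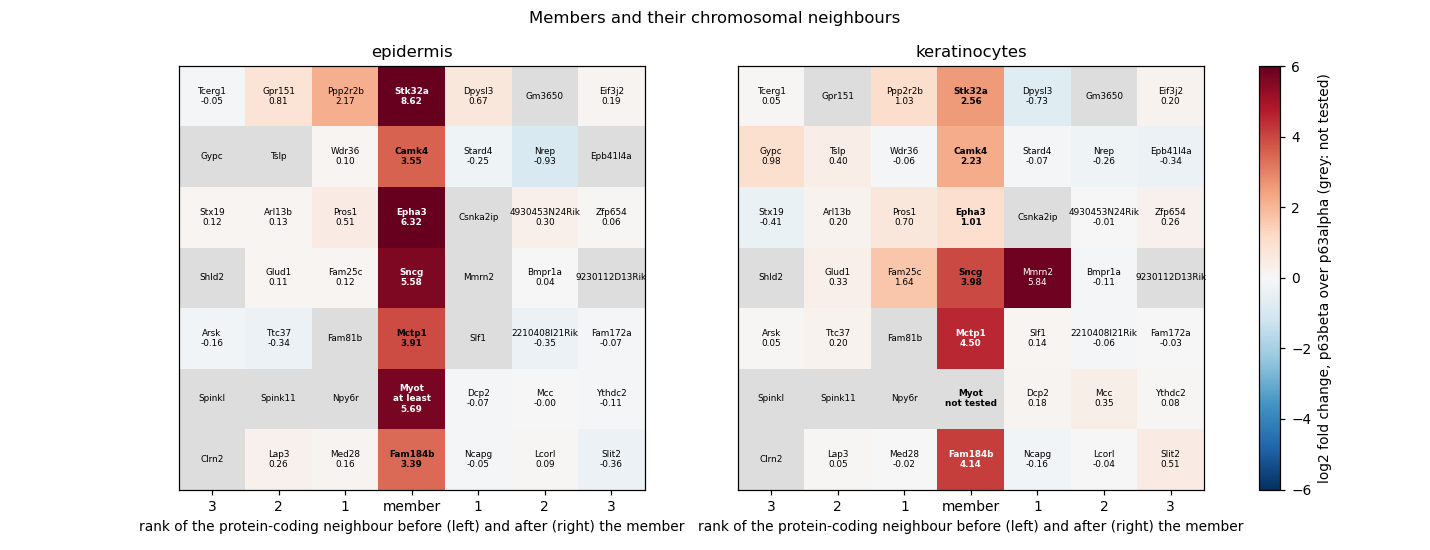
Log2 fold change, p63beta over p63alpha, of each of the 7 genes (bold, centre column) and of the 3 nearest protein-coding genes on each side, in epidermis (left) and keratinocytes (right); grey cells were not tested. The centre column stands out in epidermis because its genes were picked for a large difference there, and its epidermis Myot value is a lower bound. Among the neighbours in keratinocytes, Mmrn2 beside Sncg (5.84) has the largest value.

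Outside the 7 genes, the epidermis profiles most like their median were those of D630023F18Rik, Fut9, Htr1b, Cpz and Dpp6, by the root mean square difference in log2(CPM + 0.1) over 8 libraries, which was 0.624, 0.680, 1.26, 1.28 and 1.29. For the 7 genes themselves it ran between 0.838 for Stk32a and 1.57 for Fam184b. In keratinocytes, Fut9, a fucosyltransferase gene, had 7.35 ± 1.81 CPM in p63beta and 0.137 ± 0.0983 CPM in p63alpha, and rose with a log2 fold change of 5.72 ± 0.55 (SD, n = 3 each, and SE, edgeR adjusted p = 0.0393). D630023F18Rik rose there too, with 7.85 ± 1.41 CPM in p63beta and 1.52 ± 0.0937 CPM in p63alpha (SD, n = 3 each, edgeR adjusted p = 0.0364). Dpp6, which encodes an accessory protein of potassium channels, had 3.75 to 5.31 CPM in p63beta and 0.208 to 0.619 CPM in p63alpha (3 libraries each, edgeR adjusted p = 0.108). The serotonin receptor gene Htr1b had 12.1 ± 4.51 CPM in p63beta and 5.40 ± 1.96 CPM in p63alpha (SD, n = 3 each, edgeR adjusted p = 0.568), and the carboxypeptidase gene Cpz had 2.06 ± 0.746 CPM in p63beta and 0.0269 ± 0.0244 CPM in p63alpha (SD, n = 3 each, edgeR adjusted p = 0.0827).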

How the data were processed

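Epidermis was quantified by the authors with salmon, giving expected counts and TPM per gene, and keratinocytes as read pair counts per gene and FPKM, per the file headers with featureCounts 1.5.2, strand setting 2 and a minimum overlap of 25 bases. The deposited tables of log2 fold changes and adjusted p-values are the authors' DESeq2 results. The build was mm10, per the submitters' processing notes. No source used here states whether the epidermis counting used strand. Epidermis columns are named WT or KO, read as p63alpha and p63beta through the header of the keratinocyte count file; 14 per-library columns of the result tables were not used.

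Expected counts, of which up to 1326 per library were not whole, were rounded. The tables were fitted separately in edgeR 4.0.16 (R 4.3.3, TMM, filterByExpr by group, robust quasi-likelihood F test), adjusted over all genes tested by Benjamini-Hochberg and called at an adjusted p under 0.05; DESeq2 1.42.0 and limma 3.58.1 served as alternatives. CPM use TMM-scaled library sizes. Each SE given with an edgeR log2 fold change is the size of that change over the square root of its F statistic. It is thus another form of the test result, not a separate measure of spread. The script was tested on simulated data. Replicate numbers of the keratinocytes were taken to pair libraries: deviations from group means correlated at 0.578, 0.489 and 0.155 for numbers 1, 2 and 3 over 12629 genes, although p63beta 2 correlated with p63alpha 3 at 0.163 and p63beta 3 with p63alpha 2 at 0.155. Promoters came from RefSeq. The exact interval given for Myot in keratinocytes covers counting error only.

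The 7 genes and the lists of relatives, neighbours and markers were chosen with earlier results of these data known. Named are the 7 genes, the 5 nearest in profile and, per list without a called gene, the 2 with the largest change; other names, such as Epha2, Epha4, Camkk1, Camkk2, Creb1, Mctp2, Stard4, Dpysl3, Pros1, Tubb3, Ckm, Acta1 and the called genes near the limit of 2 CPM, were added after values were seen.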

Additional observations from a re-analysis of the deposited data

Results flagged for a closer look

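Within a group of 4 libraries, a value was singled out where its gap to the nearest library, as a share of the group's range on log2(CPM + 0.1), passed Dixon's 95% critical value. Of 15 groups examined 2 met this, and chance alone gives about 1 in 20. For Epha3 in p63beta epidermis, library EP12 stood at 0.909 CPM against 8.30 to 10.5 CPM in the others, a gap of 0.899 of the range. For Stk32a in p63alpha epidermis, EP09 had 0 reads against 1 in each of the others, a gap of 0.894 of the range, so this case rests on single reads.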

How the results depend on the processing

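The EP libraries are named in a different style from KO2 and WT3, and the labels do not say what this marks. In epidermis the 32 genes called by edgeR became 155 with DESeq2, 38 with a term for the name style and 18 with limma on log2(TPM + 1). They became 8 in the 6 libraries named EP only, an alternative chosen after seeing the data, and 10 to 28 with 1 library left out (10 without EP07). The genes called among the 7 numbered 7 in full, 6 with the term for the name style and 4 with limma on log2(TPM + 1). They numbered 2 in those 6 libraries and 3 to 6 with 1 left out. On log2(TPM + 1) the log2 fold changes were 2.51 for Stk32a, 1.71 for Epha3, 1.16 for Mctp1, 0.62 for Camk4 and 1.83 for Fam184b, and on log2(TPM + 0.1) 5.45 for Stk32a, 4.01 for Epha3, 2.96 for Mctp1 and 2.19 for Camk4; a pseudocount understates the change of low genes. For Myot the lower bound on the log2 scale ran between 4.95 and 5.95 with 1 library left out.

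In keratinocytes the 14 genes called became 215 with DESeq2, 37 with the replicate number as a block, 4 with limma on log2(FPKM + 1) and 1 to 4 with 1 library left out. With DESeq2 the log2 fold changes were 3.97 for Sncg, 4.52 for Mctp1, 2.22 for Camk4 and 4.21 for Fam184b, all called. Under the block Sncg was called at 4.13, and the block changed no call of the other 5 genes tested, Myot not being tested. With 1 library left out Sncg ran between 3.57 and 4.29, with edgeR adjusted p between 0.0164 and 0.536, and was called only without p63alpha library 1; Stk32a ran between 1.90 and 7.09 and Epha3 between 0.06 and 1.42. Among relatives, neighbours and markers, DESeq2 called 6 genes in epidermis and 5 in keratinocytes where edgeR called 0; leaving out libraries gave 0 to 1 in epidermis (Ppp2r2b without KO2) and 0 in keratinocytes. The cause of these shifts was not tested. With log2(CPM + 1), 3 of the 5 genes nearest in profile were the same. The epidermis columns carry no replicate numbers, so no paired fit was made there. Depth limits the p63alpha values of Stk32a and Myot, which rest on 0 or 1 read per library.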
